A study of Mus musculus with 4 samples.

Results

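The 36 genes described here encode the machinery that takes a cell from G1 into S phase and copies its DNA. They were chosen by name, and all 36 were found among the 19938 genes that the array platform's annotation names through probe sets with a single gene symbol. The cells were MEFs, fibroblasts (connective tissue cells) cultured from mouse embryos, labelled as NFAT5/TonEBP knockout or wild type. They were not synchronised and spent 20 hours in hypertonic medium, brought to 450 mosmol/kg with NaCl, or in isotonic medium. The groups were therefore knockout-labelled hypertonic, knockout-labelled isotonic, wild-type hypertonic and wild-type isotonic, with 1 array each. Every array was hybridised with a pool of 4 samples, so the spread among the samples is not seen, no test is possible, and all values describe these pools. The labels name neither the deleted part of Nfat5 nor the number of embryos or clones behind each genotype.

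Before S phase, the origin recognition complex, CDC6 and CDT1 load the MCM helicase onto DNA, a step called licensing. Cyclin E with its kinase partner, and the E2F transcription factors released from the RB proteins, then push the cell into S phase, where CDC45 and GINS activate the helicase. Polymerases, the sliding clamp PCNA and its loader copy the strands, ribonucleotide reductase and thymidylate synthase supply nucleotides, and CAF-1 rebuilds chromatin behind the fork. NFAT5 is a transcription factor known for switching on osmolyte genes when the medium becomes hypertonic. High NaCl is also known to slow or halt the cell cycle of cultured cells.

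E2F factors are known to regulate many of these genes, so their promoters were searched for the E2F octamers TTTCCCGC, TTTCGCGC, TTTGCCGC and TTTGGCGC on both strands. The RefSeq promoter windows used (GRCm38.p6) run from 250 bases before to 50 bases after a gene's start, and 29 of the 36 members had at least 1 window. An octamer was present for 13 of these 29 genes (44.8%), against 2.61% of all 27025 genes with a window and 5.16% of the 8067 that were measured on the array by the limit given below. By promoter, 13 of 33 member windows (39.4%) held a match, against 2.27% of all 32851 windows. Among G2/M and mitosis genes, 2 of 29 (6.90%) had an E2F octamer, whereas 19 of 29 (65.5%) had TTTGAA, the core of the element called CHR, which 4 of 29 members (13.8%), 13.6% of the measured genes and 20.2% of all genes had. The stretches below lie upstream of the starts of 7 members with a match and show how the octamers sit. Capitals mark the octamers, and a capital run of 12 letters holds a pair of overlapping octamers on opposite strands.
Mcm5, chr8:75109342-75109381, plus strand: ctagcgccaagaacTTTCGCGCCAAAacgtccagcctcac
Mcm6, chr1:128359731-128359829, minus strand: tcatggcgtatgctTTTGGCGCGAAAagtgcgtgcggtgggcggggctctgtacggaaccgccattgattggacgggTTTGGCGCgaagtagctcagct
Mcm7, chr5:138172027-138172062, minus strand: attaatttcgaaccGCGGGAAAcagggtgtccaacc
Orc1, chr4:108579413-108579448, plus strand: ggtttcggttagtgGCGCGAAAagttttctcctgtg
Cdc6, chr11:98907999-98908034, plus strand: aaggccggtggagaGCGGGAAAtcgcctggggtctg
Pola1, chrX:93632272-93632307, minus strand: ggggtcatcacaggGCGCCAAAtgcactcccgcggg
Uhrf1, chr17:56304114-56304149, plus strand: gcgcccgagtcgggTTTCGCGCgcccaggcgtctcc
Matches are a description of letters and not of bound sites.

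The values are log2 signals, on which a difference of 1 is a 2-fold difference. A gene was taken as measured when its mean over the 4 arrays lay above the dim limit, 5.39, the median of all gene means. All 36 members passed, 30 of them also above the 75th percentile of 7.57, and E2f2 lay close to the limit. A difference was called when it reached 1.5-fold, 0.58 on the log2 scale. As a gauge of error within an array, 434 measured genes read by 2 probe sets gave an SD per probe set of 0.15 to 0.19 for differences between a pair of arrays. The 1.5-fold limit is 3.04 to 3.99 of these SDs. For the difference of the responses the SD was 0.21, and the limit is 2.77 of it. Pairs of probe sets that read the same transcripts were not removed, so these SDs may be too small. This spread holds none of the variation between cultures.

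The arrays had medians of 4.87 to 4.91 over all 35557 probe sets. Nfat5 itself was not lower under the knockout label, at 8.24 in knockout-labelled hypertonic, 8.03 in knockout-labelled isotonic, 8.19 in wild-type hypertonic and 7.74 in wild-type isotonic cells. A probe set outside a deletion checks nothing, so the genotype rests on the label. Of 13 fibroblast markers, 11 lay above the array's median gene on every array. Their summed linear signal was 14755 in knockout-labelled hypertonic, 19771 in knockout-labelled isotonic, 24983 in wild-type hypertonic and 22478 in wild-type isotonic cells. None of 5 endothelial and at most 1 of 6 macrophage markers lay above the median gene on any array, while 3 or 4 of 6 epithelial and 2 or 3 of 4 smooth muscle markers did. The summed linear signal of the smooth muscle markers was 811 in knockout-labelled hypertonic and 1089 in knockout-labelled isotonic cells, against 4220 in wild-type hypertonic and 3376 in wild-type isotonic cells, so the genotypes differed in it severalfold. Acta2, smooth muscle actin, read 9.16 and 9.64 in knockout-labelled cells, against 11.65 and 11.13 in wild-type cells. Of the other smooth muscle markers, Tagln and Cnn1 were also lower in knockout-labelled cells. Myh11 was not set apart by genotype, at 4.65 and 4.54 against 4.57 and 4.75. The part of these marker levels in the results below was not tested. In such bulk samples, fewer cells in S phase and less RNA per cell cannot be told apart.

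The range over the 4 arrays was read against all measured genes and against the 2492 brightest of them, which hold 21 of the 36 members. The distance between a member's highest and lowest array had a median of 0.41 over the 36 genes, beside 0.48 over the 9969 measured genes and 0.38 over the 2492 brightest. It reached 1.5-fold for 4 of 36 members (11.1%), Gins2, Dscc1, Chaf1b and Ccne2, beside 37.4% of all measured genes and 23.6% of the 2492 brightest. It reached 2-fold for none, beside 12.1% and 5.38%. By the median, then, the members ranged about as widely as bright genes do, but a smaller share of them reached 1.5-fold. The dimmer members were not matched for brightness here. The knockout-labelled hypertonic array gave the highest signal for 15 members and the lowest for 9. The wild-type hypertonic array gave the lowest for 14 and the highest for 5. The same counts over all measured genes were not made, so these do not set the members apart.

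**Figure D1:**
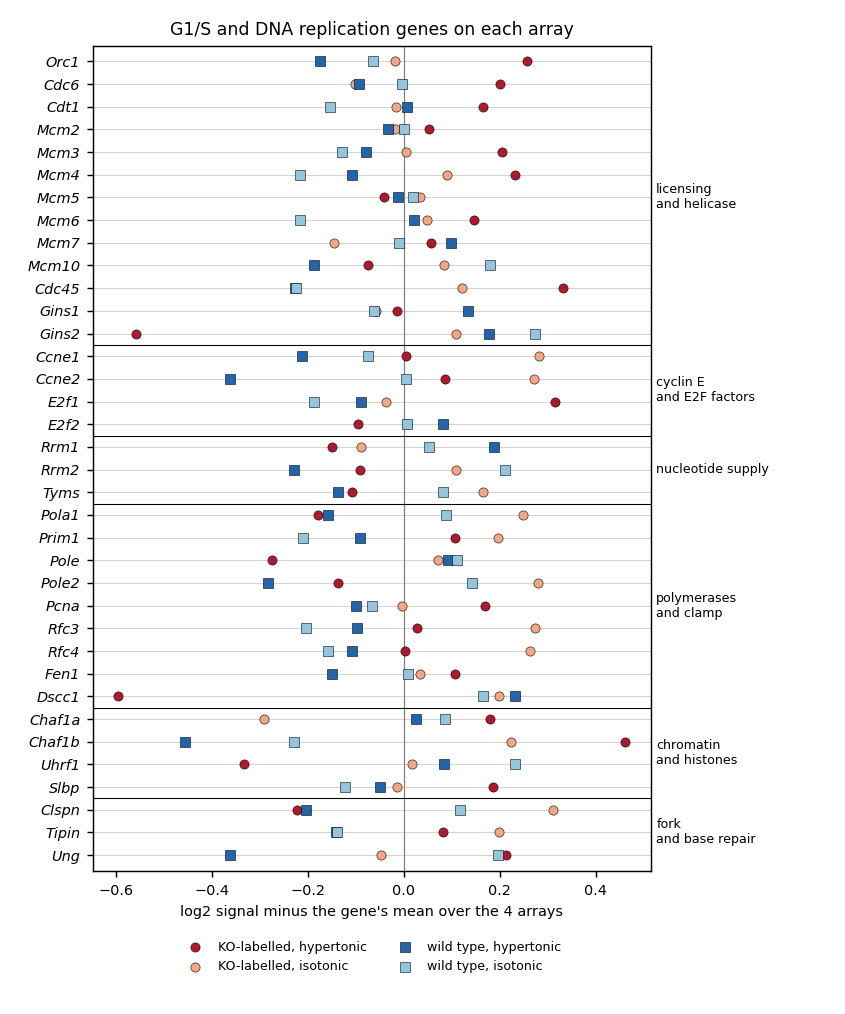
Each row is a member and each point 1 array, placed by its log2 signal minus the gene's mean over the 4 arrays; red and orange circles are knockout-labelled cells and blue squares wild-type cells, the darker shade hypertonic. Most points lie within 0.4 of the mean, and Gins2 and Dscc1 on the knockout-labelled hypertonic array stand furthest to the left.

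The first comparison asked how the replication genes differed between hypertonic and isotonic medium in knockout-labelled cells. No member was at least 1.5-fold higher and 2 of 36 were at least 1.5-fold lower, against 3.5% and 11.9% of all measured genes. Among the 2492 brightest genes the shares were 1.57% and 6.02%. The 2 members were Gins2 (-0.67) and Dscc1 (-0.79). With means of 8.48 and 6.99, both are dimmer than those brightest genes. Of measured genes with means of 7.57 to 8.57, 11.3% were at least 1.5-fold lower, and of those with means of 6.61 to 7.57, 15.7%. The members' median difference was -0.067, with quartiles of -0.27 and 0.20, beside a median of -0.093 over all measured genes; the sign of the members' median turned to 0.012 after quantile scaling. That scaling also changed the split of all measured genes, to 554 higher and 813 lower, beside 349 and 1190 as deposited.

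In wild-type cells the same comparison gave no member past 1.5-fold in either direction, against 3.67% of all measured genes higher and 3.17% lower, and 2.01% and 2.13% of the 2492 brightest. The median was -0.033, beside -0.026 over all measured genes, and the members lay between -0.56 for Ung and 0.24 for Mcm6. So of 36 replication genes, 2 in knockout-labelled and none in wild-type cells were past 1.5-fold after 20 hours at 450 mosmol/kg. The responses of the genotypes share no array, and across the 36 members they had a Pearson's r of 0.23 and a Spearman's rho of 0.25, with 21 of the same sign. Across all 9969 measured genes r was -0.028 and 51.6% had the same sign. Genes of 1 array are not independent replicates, so these are descriptions.

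**Figure D2:**
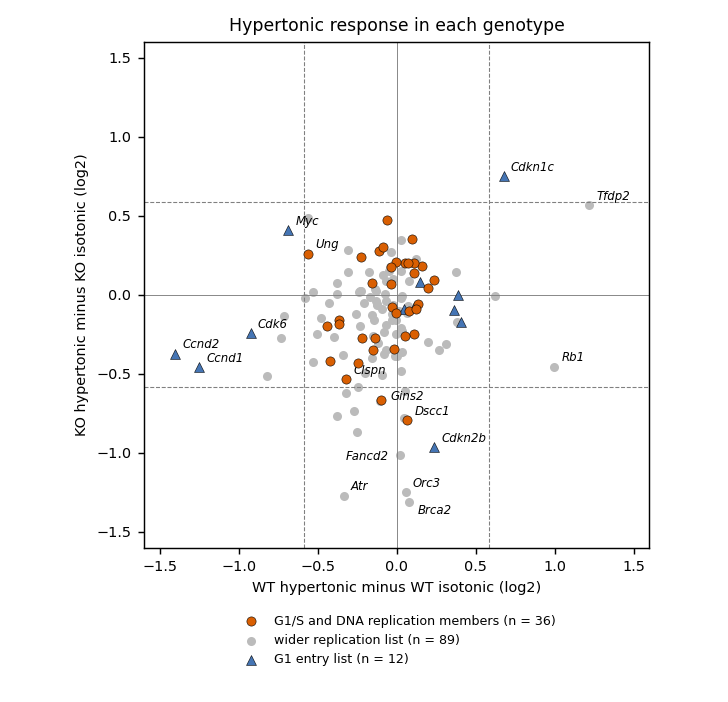
The response of each gene in knockout-labelled cells (vertical axis) is set against that in wild-type cells (horizontal axis), both hypertonic minus isotonic on the log2 scale, for members (orange circles), the wider replication list (grey circles) and the G1 entry list (blue triangles). Dashed lines mark 1.5-fold; the members cluster around 0, with Dscc1 at -0.79 and Gins2 at -0.67 in knockout-labelled cells below the line, while Ccnd1 and Ccnd2 lie to the left at -1.25 and -1.41 in wild-type cells.

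Between the genotypes in isotonic medium, no member was past 1.5-fold, against 4.53% of all measured genes higher and 3.41% lower in knockout-labelled cells, and 2.29% and 1.28% of the 2492 brightest. The median was 0.074, beside 0.030 over all measured genes. In hypertonic medium 1 of 36 members, Chaf1b (0.92), was at least 1.5-fold higher in knockout-labelled cells and 2, Dscc1 (-0.83) and Gins2 (-0.74), were at least 1.5-fold lower, against 8.23% and 14.6% of all measured genes and 6.46% and 8.31% of the 2492 brightest. The median was 0.14, beside -0.013 over all measured genes, and 25 of 36 members were above 0, beside 4862 of the 9969 measured genes.

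The difference of the responses, knockout-labelled minus wild type, was past 1.5-fold for 1 member upward, Ung (0.82), and for 1 downward, Dscc1 (-0.86), against 6.99% and 15.1% of all measured genes and 4.21% and 8.11% of the 2492 brightest. Its median was 0.015, beside -0.062 over all measured genes. At a limit of 2-fold no member was called in any of the 5 comparisons. The backgrounds at that limit were 0.221% higher and 2.97% lower in the knockout-labelled response, and 0.802% and 0.401% in the wild-type response. Between the genotypes they were 1.35% higher and 1.1% lower in isotonic and 2.28% and 6.05% in hypertonic medium, and 1.23% and 5.31% in the difference of the responses. With 36 members, a background of 2.97% or less amounts to about 1 gene or less, so none past 2-fold says little in most of these comparisons.

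**Figure D3:**
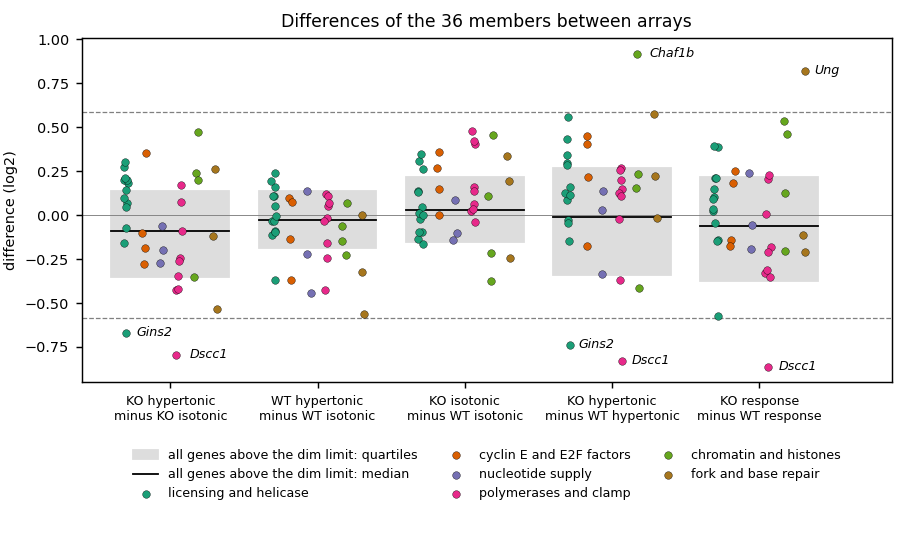
Points are the 36 members, coloured by role, for each of the 5 comparisons on the log2 scale; grey boxes span the quartiles of all 9969 measured genes, with their median as a black line, and dashed lines mark 1.5-fold. The members lie mostly inside or near the boxes, and only Gins2, Dscc1, Chaf1b and Ung pass a dashed line.

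Licensing and helicase genes, 13 of the members, had a median difference of 0.14 in the knockout-labelled response, with 10 above 0, and of -0.0029 in the wild-type response, with 6 above 0. Over all measured genes, 61.1% were below 0 in the first and 54.2% in the second response. The 6 subunits of the MCM helicase ring stayed close together. Their differences spanned -0.075 (Mcm5) to 0.20 (Mcm7) in the knockout-labelled response and -0.035 (Mcm2) to 0.24 (Mcm6) in the wild-type response. Mcm2 read 10.28 in knockout-labelled hypertonic, 10.21 in knockout-labelled isotonic, 10.19 in wild-type hypertonic and 10.23 in wild-type isotonic cells. Mcm5 read 9.77, 9.84, 9.79 and 9.83 in the same order of groups. Both were flat across genotype and medium. Mcm4 had the widest genotype difference of the ring, with 10.47 in knockout-labelled hypertonic and 10.33 in knockout-labelled isotonic cells, against 10.13 in wild-type hypertonic and 10.02 in wild-type isotonic cells, so both knockout-labelled arrays were above both wild-type arrays. Mcm3 (10.38 and 10.18, against 10.09 and 10.04) and Mcm6 (10.45 and 10.36, against 10.33 and 10.09) had the same order, and none of these differences reached 1.5-fold. Members outside the ring, such as Prim1, Rfc4 and Tipin, had this order too. Its share over all measured genes was not counted, so it does not set any member apart. Mcm7 read 10.34 and 10.14 in knockout-labelled cells, against 10.38 and 10.27 in wild-type cells, hypertonic before isotonic.

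The 3 members that load the ring, Orc1, Cdc6 and Cdt1, each read highest on the knockout-labelled hypertonic array. The other subunits of the origin recognition complex, from the wider list, were mixed. Orc3 and Orc5 read lowest on that array, whereas Orc2 read highest there, barely above knockout-labelled isotonic cells (8.47 and 8.46). Orc4 and Orc6 read lowest on the wild-type hypertonic array. Orc1, the largest subunit of the origin recognition complex, read 7.04 in knockout-labelled hypertonic and 6.76 in knockout-labelled isotonic cells, against 6.61 in wild-type hypertonic and 6.72 in wild-type isotonic cells. Cdc6, the loading ATPase, read 7.99 and 7.69 in knockout-labelled cells, against 7.70 and 7.79 in wild-type cells, again hypertonic before isotonic. Cdt1, which brings the ring to the origin, read 9.21 and 9.03, against 9.05 and 8.89. Their knockout-labelled responses of 0.28, 0.30 and 0.18 were all below 1.5-fold. Mcm10, which helps the loaded helicase to start, read 7.93 and 8.09 in knockout-labelled cells, against 7.82 and 8.19 in wild-type cells, and was thus lower in hypertonic medium in both genotypes, by differences of -0.16 and -0.37.

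Among the helicase activators, Gins2 stood apart from its partners. It read 7.92 in knockout-labelled hypertonic and 8.59 in knockout-labelled isotonic cells, against 8.66 in wild-type hypertonic and 8.75 in wild-type isotonic cells, so a single array was low and the other three lay within 0.17 of each other. Gins1, another subunit of the same 4-protein complex, read 8.26 and 8.21 in knockout-labelled cells, against 8.40 and 8.21 in wild-type cells. Gins3 and Gins4, from the wider list, had knockout-labelled responses of -0.13 and 0.23. Gins2 passed 1.5-fold in the knockout-labelled response as deposited and with a gene's probe sets averaged, but read -0.57 after quantile, after cyclic loess and after median scaling, which moved the median of all measured genes by up to 0.10. Cdc45, the partner of MCM and GINS in the active helicase, read 9.36 and 9.15 in knockout-labelled cells, against 8.80 and 8.80 in wild-type cells. Both its knockout-labelled arrays were above both wild-type arrays, by 0.56 in hypertonic and 0.35 in isotonic medium. As for Mcm4, the share of all measured genes with this order was not counted.

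**Figure D4:**
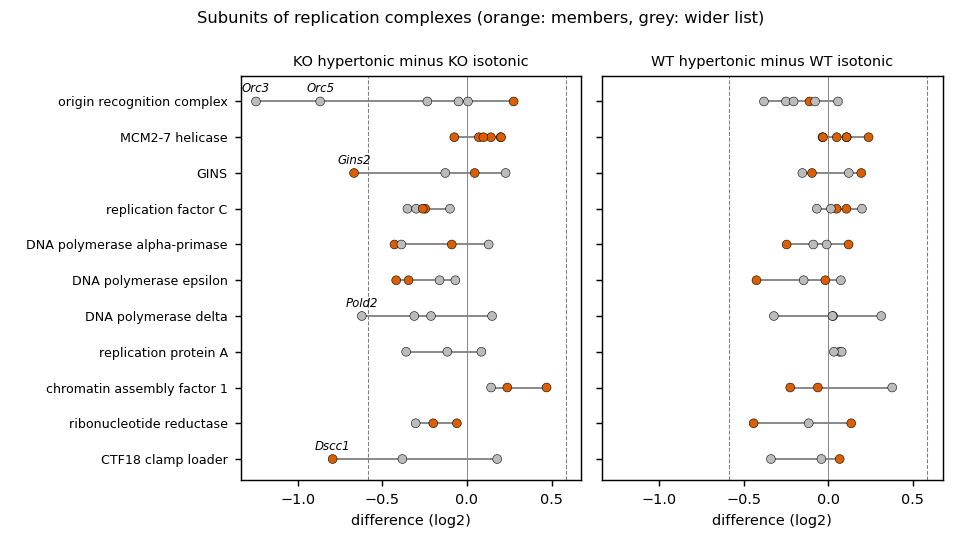
Each point is a subunit of a replication complex, with the knockout-labelled response on the left and the wild-type response on the right (log2, hypertonic minus isotonic); orange points are members, grey points come from the wider list, grey lines join the extremes of a complex and dashed lines mark 1.5-fold. The MCM ring spans 0.28 in knockout-labelled and 0.27 in wild-type cells, whereas the origin recognition complex spans 1.52 and 0.44. The complexes were not matched for brightness, with gene means of 9.81 to 10.31 in the ring and 6.73 to 9.74 in the origin recognition complex.

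Grouping the genes by textbook complex, done after their values were seen, showed where subunits parted. The 4 subunits of DNA polymerase epsilon and the 5 of replication factor C, the clamp loader, were all below 0 in the knockout-labelled response, with medians of -0.25 and -0.26. This shared sign depends on scaling, since the median of all measured genes was itself -0.093 and Pole3 (-0.069) and Rfc5 (-0.10) lay close to it. All 3 CAF-1 subunits were above 0 there, with a median of 0.24. The origin recognition complex spread most widely, between Orc1 at 0.28 and Orc3 at -1.25. The complexes were not matched for brightness.

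Cyclin E and E2F genes, 4 of the members, did not pass 1.5-fold in any comparison. Ccne1, a cyclin that drives entry into S phase, read 7.82 in knockout-labelled hypertonic, 8.09 in knockout-labelled isotonic, 7.60 in wild-type hypertonic and 7.74 in wild-type isotonic cells. Ccne2, its paralogue, read 7.63, 7.81, 7.18 and 7.55 in that order. Both cyclins were lower in hypertonic than in isotonic medium in each genotype, Ccne2 by -0.19 and -0.37, and higher in knockout-labelled than wild-type cells in each medium, by 0.45 in hypertonic and 0.27 in isotonic medium for Ccne2. E2f1, an activator of this gene set, read 8.42 and 8.07 in knockout-labelled hypertonic and isotonic cells, against 8.02 and 7.92 in wild-type cells. E2f2, another activator, stayed between 5.33 and 5.51, near the dim limit, so its differences are poorly determined.

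Nucleotide supply was read by 3 members. Rrm2, the regulated small subunit of ribonucleotide reductase, read 9.54 in knockout-labelled hypertonic and 9.74 in knockout-labelled isotonic cells, against 9.40 in wild-type hypertonic and 9.84 in wild-type isotonic cells. Tyms, thymidylate synthase, read 9.01 and 9.29, against 8.98 and 9.20. These 2 genes were lower in hypertonic medium in both genotypes, with differences of -0.20 and -0.44 for Rrm2 and -0.27 and -0.22 for Tyms. Rrm1, the large subunit, did not share this pattern in wild-type cells, with responses of -0.060 in knockout-labelled and 0.14 in wild-type cells. Among the 11 measured genes of nucleotide supply in the wider list, Cad, the first enzyme of pyrimidine synthesis, and Nme1, a nucleoside diphosphate kinase, passed 1.5-fold in the wild-type response, at -0.82 and -0.71. Tk1, thymidine kinase, read 8.002 in knockout-labelled hypertonic cells and 8.78, 8.94 and 8.90 in knockout-labelled isotonic, wild-type hypertonic and wild-type isotonic cells, so only the first array was low. Shmt1, a serine hydroxymethyltransferase that feeds thymidylate synthesis, read 8.57 and 8.08 in knockout-labelled hypertonic and isotonic cells, against 7.58 and 8.14 in wild-type cells.

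Polymerase and clamp genes, 9 of the members, had a median of -0.26 in the knockout-labelled response, with 7 below 0, and of -0.018 in the wild-type response. In the knockout-labelled response 61.1% of all measured genes were below 0. Pola1, the catalytic subunit of polymerase alpha, read 8.62 in knockout-labelled hypertonic, 9.05 in knockout-labelled isotonic, 8.64 in wild-type hypertonic and 8.88 in wild-type isotonic cells. Pole2, a subunit of the leading-strand polymerase epsilon, read 7.06, 7.48, 6.92 and 7.34 in that order. Both were lower in hypertonic medium in each genotype, Pole2 by nearly equal differences of -0.42 and -0.43. Pole, the catalytic subunit, was lower in knockout-labelled hypertonic cells (8.19) than on the other arrays (8.53 to 8.57). Prim1, the primase, read 9.58 and 9.67 in knockout-labelled hypertonic and isotonic cells, against 9.38 and 9.26 in wild-type cells.

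The clamp loader genes Rfc3 and Rfc4 had similar differences. Rfc3 read 8.88 and 9.12 in knockout-labelled hypertonic and isotonic cells, against 8.75 and 8.64 in wild-type cells, and Rfc4 read 9.71 and 9.97, against 9.60 and 9.55. In isotonic medium they were higher in knockout-labelled cells by 0.48 and 0.42, short of 1.5-fold. Pcna, the sliding clamp, read 11.67 and 11.50 in knockout-labelled hypertonic and isotonic cells, against 11.40 and 11.43 in wild-type cells. Its other probe set gave nearly the same signals on every array and the annotation lists the same transcripts for both, so the pair is not independent. Fen1, the flap nuclease of the lagging strand, read 8.83 and 8.76, against 8.58 and 8.73.

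Dscc1, a subunit of the CTF18 clamp loader that acts in sister chromatid cohesion, had the largest difference of any member in the knockout-labelled response. It read 6.39 in knockout-labelled hypertonic and 7.19 in knockout-labelled isotonic cells, against 7.22 in wild-type hypertonic and 7.15 in wild-type isotonic cells. Here too a single array was low and the other three were level. It kept its side of 1.5-fold under all scalings tried, between -0.79 and -0.65. Its partners Chtf18 and Chtf8 had knockout-labelled responses of -0.38 and 0.18.

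Of the CAF-1 members, Chaf1b differed between the genotypes in both media, while the genotypes overlapped for Chaf1a. Chaf1b, the middle subunit of this histone chaperone, read 9.77 in knockout-labelled hypertonic and 9.53 in knockout-labelled isotonic cells, against 8.85 in wild-type hypertonic and 9.08 in wild-type isotonic cells, so the genotypes did not overlap. The difference was 0.92 in hypertonic and 0.45 in isotonic medium. Here too the share of all measured genes without overlap was not counted. Chaf1a, the large subunit, was instead lowest in knockout-labelled isotonic cells, at 8.12, beside 8.59 in knockout-labelled hypertonic, 8.43 in wild-type hypertonic and 8.50 in wild-type isotonic cells. Uhrf1, which recognises hemimethylated DNA behind the fork, read 9.55 and 9.90 in knockout-labelled hypertonic and isotonic cells, against 9.96 and 10.11 in wild-type cells. Slbp, which binds the stem-loop of histone mRNAs, read 9.84 and 9.64, against 9.60 and 9.53, and its other probe set gave a knockout-labelled response of 0.19 beside 0.20.

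Of the fork and repair members, Clspn, the adaptor that activates the CHK1 kinase, read 7.51 in knockout-labelled hypertonic and 8.04 in knockout-labelled isotonic cells, against 7.53 in wild-type hypertonic and 7.85 in wild-type isotonic cells. It was lower in hypertonic medium in both genotypes, by differences of -0.53 and -0.32. Tipin, a partner of TIMELESS at the fork, read 9.37 and 9.48, against 9.14 and 9.15. Ung, which removes uracil from DNA, read 7.18 and 6.92 in knockout-labelled hypertonic and isotonic cells, against 6.60 and 7.17 in wild-type cells. Its low array was the wild-type hypertonic one, with a wild-type response of -0.56 and a knockout-labelled response of 0.26.

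The differences were also read by promoter. The 13 members with an E2F octamer had medians of -0.075 in the knockout-labelled and -0.031 in the wild-type response, beside 0.071 and -0.048 for the 16 members whose windows lacked one. The members with and without an octamer overlapped over most of their range, -0.53 to 0.30 and -0.28 to 0.47 in the knockout-labelled response.

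A wider list of 93 replication, E2F/RB and fork protection genes, of which 89 were found and measured, gave the surroundings of the members. In the knockout-labelled response 11 of 89 (12.4%) were at least 1.5-fold lower and none was higher, close to the background of 11.9% lower. They were Brca2 (-1.31) and Fancd2 (-1.01), which act in repair of damaged forks, the checkpoint kinase gene Atr (-1.27), the origin recognition genes Orc3 (-1.25) and Orc5 (-0.87), Tk1 (-0.78), the E2F family gene E2f5 (-0.77), Cdca7 (-0.74), the RB relative Rbl1 (-0.67), the polymerase delta gene Pold2 (-0.62) and Mcm9 (-0.61). After quantile, cyclic loess or median scaling, 3 of the 11 lost their call under at least 1 setting: Pold2 was past 1.5-fold in 2 of 5 settings, and Rbl1 and Mcm9 in 3 of 5. Brca2 and Fancd2 read 5.10 and 5.33 on the knockout-labelled hypertonic array, below that array's median gene at 5.37, so the sizes of their differences are poorly determined. Of the 13 measured fork, checkpoint and repair genes in this list, 12 were below 0, with a median of -0.37, beside 61.1% of all measured genes below 0. Of the 3 members of the same role, Clspn and Tipin were below 0 and Ung was above.

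In the wild-type response the wider list had 3 genes at least 1.5-fold higher and 3 lower of 89 (3.37% each way), close to the backgrounds of 3.67% and 3.17%. The higher ones were Tfdp2 (1.22), encoding a DNA-binding partner of E2F factors, Rb1 (0.998), the retinoblastoma protein that holds E2F in check, and its relative Rbl2 (0.62). The lower ones were Cad, Nme1 and Mybl2 (-0.73), a transcription factor of the G1/S programme. Rb1 read 7.20 in knockout-labelled hypertonic and 7.66 in knockout-labelled isotonic cells, against 7.82 in wild-type hypertonic and 6.82 in wild-type isotonic cells. Its knockout-labelled response was -0.45, so the difference of the responses was -1.45. Between the genotypes, Dna2, a nuclease that trims flaps, was higher in knockout-labelled cells by 1.24 in hypertonic and 0.68 in isotonic medium. Pole4, a small subunit of polymerase epsilon, was lower by -0.71 and -0.69. In isotonic medium, 2 of the 89 genes (2.25%), Rb1 (0.84) and Dna2, were at least 1.5-fold higher in knockout-labelled cells. Pole4 was the 1 lower gene (1.12%). The shares of all measured genes were 4.53% and 3.41%. In hypertonic medium, 4 of the 89 genes (4.49%) were at least 1.5-fold higher in knockout-labelled cells and 8 (8.99%) lower. The shares of all measured genes were 8.23% and 14.6%. The higher genes were Dna2, Shmt1 (0.99), Rnaseh2a (0.66) and Dbf4 (0.64). The lower ones were Fancd2 (-1.51), Brca2 (-1.42), Orc3 (-1.05), Atr (-0.94), Tk1 (-0.94), Pole4, Pold2 (-0.64) and Rb1 (-0.62), the last in 4 of 5 settings.

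Lists of genes that act before and after S phase were read in the same way. Of 12 measured genes of the G1 entry list, 4 were at least 1.5-fold lower in the wild-type response, Ccnd2 (-1.41), Ccnd1 (-1.25), Cdk6 (-0.92) and Myc (-0.69), and 1, the CDK inhibitor gene Cdkn1c (0.68), was higher. The backgrounds over all measured genes were 3.17% lower and 3.67% higher. Ccnd1 read 8.44 in knockout-labelled hypertonic and 8.90 in knockout-labelled isotonic cells, against 8.36 in wild-type hypertonic and 9.61 in wild-type isotonic cells, so the wild-type isotonic array was the high one. None of the 36 replication members passed the same limit there. Nor did any of 35 G2/M and mitosis genes, with a median of -0.0039. At those backgrounds, none past the limit in a list of 35 or 36 genes says little. In the knockout-labelled response the G2/M genes had a median of -0.15 with 27 of 35 below 0, beside -0.067 with 19 of 36 below 0 for the replication members. All measured genes had a median of -0.093 there, with 61.1% below 0. Of the 12 G1 entry genes, Cdkn1c (0.75) was at least 1.5-fold higher in the knockout-labelled response and Cdkn2b (-0.97) lower. The backgrounds were 3.5% and 11.9%. In isotonic medium 3 of 12, Ccnd2 (-1.25), Myc (-0.78) and Ccnd1 (-0.71), were at least 1.5-fold lower in knockout-labelled than wild-type cells, against 3.41%. In hypertonic medium 2 were, Cdkn2b (-1.55) and Cdkn2a (-0.66), against 14.6%. None was higher in either medium. No test between the lists was made.

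**Figure D5:**
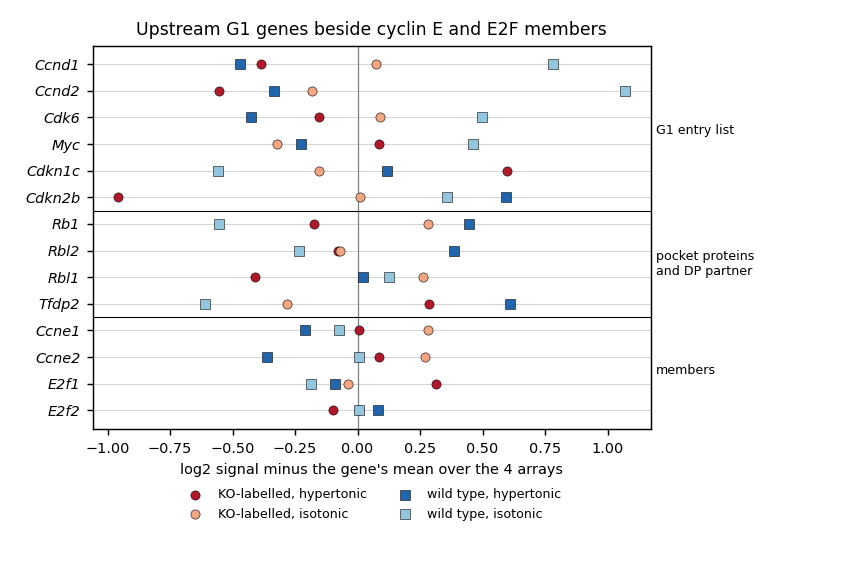
Rows are G1 entry genes, RB relatives with Tfdp2, and the cyclin E and E2F members; points give log2 signal on each array minus the gene's mean over the 4 arrays, with colours and shapes by genotype and medium. Ccnd1, Ccnd2, Cdk6 and Myc are highest and Rb1 and Tfdp2 lowest in wild-type isotonic cells, while the 4 members span at most 0.63, for Ccne2 with 7.18 to 7.81; the other genes shown were picked from those named by rule.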

How the data were processed

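The deposited table holds 1 log2 signal per probe set and array, made by the authors from Affymetrix Mouse Gene 1.0 ST arrays. That scale was inferred from the range of the signals, 1.57 to 13.94. Per the submitters' processing notes the tool was MAS5. Neither its version nor how arrays were scaled to each other is stated in the labels. A different scaling of the arrays would shift the differences between them, by amounts that vary with the gene. No scanner file or detection call was analysed here. Per the series' design text, 4 samples were pooled per array.

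Of 35557 probe sets, 21789 had 1 gene symbol in the platform annotation, 1621 had several and 12147 had none; the last 2 kinds were left out. The probe set with the highest mean was used for each gene. Differences were taken between single arrays, with no p-value, and counted at 1.5-fold. With 1 array per group, the number of arrays limits the precision. Every member is named; of the wider list, genes past 1.5-fold; of the compared lists, at most 4 past it per comparison. A few partner subunits were named after their values were seen. Members and lists were chosen with earlier results of these data known. Alternatives were quantile, cyclic loess and median scaling, other dim limits, averaged probe sets and a 2-fold limit. The counting steps were tested on simulated data. Calculations used Python 3.11.15, pandas 2.3.3, numpy 2.4.6, matplotlib 3.10.9, R 4.3.3 and limma 3.58.1.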

Additional observations from a re-analysis of the deposited data

Results flagged for a closer look

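Among the 70 genes named by rule, 16 had responses of opposite sign in the genotypes with a difference of at least 1.5-fold between them. The 70 genes were named partly for large values of this same difference, so the count of 16 is not a result about them. Among all measured genes, 6.99% were at least 1.5-fold higher and 15.1% lower in it, whatever the signs of the responses. With 1 array per group these differences were not tested. Of the replication members there were 2, Dscc1 with a knockout-labelled response minus wild-type response of -0.86 and Ung with 0.82. In the wider replication list the negative differences were Rb1 (-1.45), Brca2 (-1.38), Orc3 (-1.31), Fancd2 (-1.03), Tk1 (-0.83), Mcm9 (-0.66), Rbl2 (-0.63), Mcm8 (-0.62) and Pold4 (-0.62). The positive differences there were Shmt1 (1.05) and Exo1 (0.59). In the G1 entry list they were Cdkn2b (-1.20) and Myc (1.09), and in the G2/M list Nek2 (0.62). The difference fell short of 1.5-fold in some scalings for Rbl2, Mcm8 and Pold4, which passed it in 3 of 5 settings with values up to -0.52, -0.49 and -0.49, and for Mcm9, which passed it in 4 of 5. For Dscc1, Orc3, Tk1, Mcm9, Brca2, Fancd2 and Rbl2 one of the responses was smaller than 0.1, so its sign carries little.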

How the results depend on the processing

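No direction of a called gene turned under quantile, cyclic loess or median scaling or averaged probe sets. The members' median in the knockout-labelled response was -0.067 as deposited, and 0.012 after quantile, 0.012 after cyclic loess and 0.026 after median scaling, or -0.0072 with the dim limit at the 75th percentile. In the wild-type response it was 0.0039 after cyclic loess and -0.0071 after median scaling. In the isotonic genotype difference it was 0.032, 0.036 and 0.043, and in the difference of the responses 0.068, 0.060 and 0.077, after quantile, cyclic loess and median scaling. Under each of these 3 scalings 1 member, Dscc1, was lower in the knockout-labelled response. In the hypertonic genotype difference 2 (Chaf1b and Ung) were higher and 2 (Gins2 and Dscc1) lower. In the difference of the responses 2 (Chaf1a and Ung) were higher and 1 (Dscc1) lower. Of all 9969 measured genes, quantile scaling gave 813 lower in the first, 987 higher and 1278 lower in the second, and 930 and 1230 in the third. With the dim limit at the 75th percentile, 1 member was lower in the knockout-labelled response. In the hypertonic genotype difference 1 was higher and 1 lower, and 0 were called either way in the difference of the responses. At 2-fold, 0 members were called in any comparison. Pold2, Rbl1 and Mcm9 of the wider list reached only -0.52, -0.57 and -0.51 in the knockout-labelled response under their weakest scaling. The causes of these shifts were not tested, beyond the genes that the higher limits leave out. No paired analysis was possible because each group has 1 array. A single array per group, each of pooled samples, limits every value.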
